A study of Mus musculus with 6 samples.

Results

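The mRNA of 7 genes of MHC class II antigen presentation was measured in the left ventricles (LVs) of mice. The genes were taken by name, as *H2-Aa*, *H2-Ab1*, *H2-Eb1*, *Cd74*, *H2-DMa*, *H2-DMb1*, and *Ciita*, from the 56923 genes listed in the count table, and all 7 were among the 17212 genes that passed the filter on low counts and were tested. RNA-Seq was done on the hearts of 3 WT mice and 3 mice labelled as mutant. All mice were 12 weeks old, and each gave 1 library. By the methods of the study, the mutant mice were heterozygous for a knock-in of the R409C missense mutation in *Lztr1* (*Lztr1* R409C/+), made by genome editing and carried in every cell of the body, and served as a model of Noonan syndrome with cardiac hypertrophy. Both groups were males on a C57BL/6J background, and the LVs were perfused with PBS before RNA was extracted. LZTR1 is an adaptor of a ubiquitin ligase that directs RAS family proteins to degradation.

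MHC class II molecules are pairs of an α and a β chain that carry peptides from the endosome to the surface of antigen presenting cells, where CD4+ T cells read them. In the mouse, I-A is built from the products of *H2-Aa* and *H2-Ab1*, and *H2-Eb1* encodes the β chain of I-E. *Cd74* encodes the invariant chain, which fills the groove of the new dimer and takes it to the endosome. *H2-DMa* and *H2-DMb1* encode the H2-DM dimer, which removes the last piece of the invariant chain and lets peptide bind. *Ciita* encodes the coactivator without which these genes are hardly transcribed, and it works through a complex of RFX, CREB, and NF-Y proteins bound to the X and Y boxes of class II promoters. In the heart, macrophages and dendritic cells are the best known carriers of class II molecules.

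Total counts were between 66130887 and 72641124 per mouse, and the unit used here is CPM, counts relative to the TMM-scaled total of the mouse. A gene with 3 counts, the floor of this depth for counting error alone, would read 0.0317 CPM in the mouse with the largest scaled total and 0.0541 CPM in the one with the smallest. WT replicate 3 stood apart, with 13.8% of its counts from mitochondrially encoded genes against 29.7% to 45.4% in the other 5 mice and a TMM factor of 1.39 against 0.8 to 1.1. At the other end, *Lztr1* R409C/+ replicate 1 had the largest such share, 45.4%, and the smallest TMM factor, 0.8. The labels give the tissue as heart, and LV comes from the methods of the study. The markers used here bear on ventricle against atrium and cannot tell the left ventricle from the right. The summed level of 8 cardiomyocyte genes was between 31100 and 51400 CPM, and the atrial genes *Myl7* and *Sln* were at 0 in every WT mouse and averaged 0.111 and 0.0184 CPM in the mutant mice. The other atrial genes of the list were detected, *Myl4* at 0.470 ± 0.107 CPM in WT and 0.491 ± 0.00492 in mutant mice and *Nppa*, which hypertrophic ventricles also express, at 54.5 ± 19.6 and 78.6 ± 26.9 CPM. The *Lztr1* transcript had a level of 23.5 ± 1.11 CPM (SD, n = 3) in WT and 25.7 ± 2.03 in *Lztr1* R409C/+ mice. A missense allele need not change the level of its mRNA, so this value does not check the labels.

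The regulatory letters of class II promoters are shown first because all members are described as targets of the same complex, apart from *Ciita* itself. RefSeq promoter windows, which run from 250 bases before to 50 bases after an annotated start, were matched by symbol for 4 of the 7 members, *H2-Aa*, *H2-Eb1*, *H2-DMa* (with a pair of windows), and *H2-DMb1*. *H2-Ab1*, *Cd74*, and *Ciita* are named only. The RefSeq table is of GRCm38.p6, and each window was found at exactly 1 place in GRCm39, whose positions are given. The 150 bases before the start are printed 5′ to 3′ on the strand of the gene, with CCAAT on either strand (ATTGG on the printed strand) and the core of the X box in capitals. That core is spelled AG, 2 free bases, AC, 1 free base, and GATG.
H2-Aa, chr17:34506798-34506947, minus strand: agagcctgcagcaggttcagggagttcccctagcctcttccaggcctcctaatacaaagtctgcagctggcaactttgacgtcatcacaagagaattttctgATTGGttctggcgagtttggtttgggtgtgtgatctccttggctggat
H2-Eb1, chr17:34524691-34524840, plus strand: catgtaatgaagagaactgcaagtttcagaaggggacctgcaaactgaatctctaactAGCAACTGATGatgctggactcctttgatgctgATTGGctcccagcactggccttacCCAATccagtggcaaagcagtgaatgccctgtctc
H2-DMb1, chr17:34372015-34372164, plus strand: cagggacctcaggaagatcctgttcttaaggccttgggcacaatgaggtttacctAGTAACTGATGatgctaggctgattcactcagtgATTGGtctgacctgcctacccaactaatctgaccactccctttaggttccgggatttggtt

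Both strands of 32851 RefSeq windows were searched for CCAAT, the core of the Y box, for the X box core, and for a longer X box, which is the core preceded by C and 2 free bases. CCAAT was in 37.4% of all windows, so its presence says little by itself. The X box core was in 0.968%, the longer X box in 0.237%, and the X box core together with CCAAT in 0.387%. *H2-Eb1* held the X box core from 92 to 82 bases before the start, an inverted CCAAT from 59 to 55 bases before it, and a direct CCAAT from 35 to 31 bases before it. *H2-DMb1* held the longer X box from 98 to 85 bases before its start and an inverted CCAAT from 61 to 57 bases before it. The spacing was therefore alike, with 22 bases between the X box core and the inverted CCAAT in *H2-Eb1* and 23 bases in *H2-DMb1*. An X box core followed by an inverted CCAAT 15 to 25 bases on, a range set after these windows were read, was found in 6 of the 32851 windows (0.0183%). Their genes were *H2-DMb1*, *H2-Eb1*, and the class II gene *H2-Eb2*, with *Esrrb*, *Gm31108*, and *Gm51881*. *H2-Aa* held an inverted CCAAT from 48 to 44 bases before the start and none of the X box letters as spelled here. Of the *H2-DMa* windows, 1 held an inverted CCAAT from 198 to 194 bases before its start, and neither held the X box letters. A match of letters is a description and not a binding site.

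**Figure D1:**
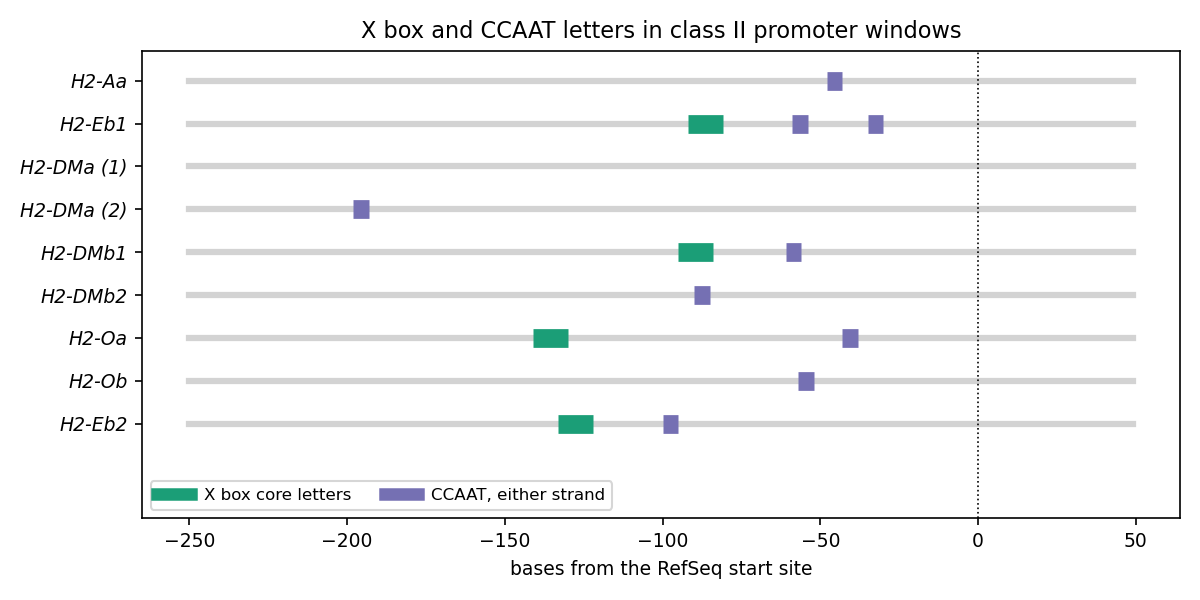
Positions of the X box core letters (green) and of CCAAT on either strand (violet) in the RefSeq windows of 4 members and of the other class II genes, in bases from the annotated start on the strand of the gene. In *H2-Eb1*, *H2-DMb1*, and *H2-Eb2* the X box core lies upstream of an inverted CCAAT with 22 or 23 bases between them.

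The comparison of genotypes asked whether class II mRNA differs in the LVs of *Lztr1* R409C/+ mice. All 7 members had a higher mean level in *Lztr1* R409C/+ mice than in WT mice, by 1.4-fold for *Cd74* to 2.87-fold for *H2-DMb1* as the ratio of mean CPM. For 5 of the 7, each *Lztr1* R409C/+ mouse was above each WT mouse, and 8.3% of all tested genes had groups that did not overlap in this direction, against 7.23% in the other. No member passed the threshold of 0.05 after Benjamini-Hochberg adjustment over all genes with edgeR's quasi-likelihood test, which 0.0349% of tested genes passed as higher and 0.00581% as lower. All 7 had an unadjusted p under 0.05 in this direction by the same test, as did 5.77% of tested genes, with 2.86% in the other. The members' share was above that of all genes. The members were chosen with earlier results of these data known, and most varied together across the mice. This share is therefore a description and not a test. DESeq2 and edgeR's exact test, which call more genes, each called 4 of the 7 as higher after adjustment. Over all genes the share was 0.961% of 14874 genes with DESeq2 and 0.72% of the 17212 tested genes with the exact test. In bulk tissue, more cells of a type and more RNA per cell cannot be told apart, and this holds for every level given here.

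Among the antigen binding chains, *H2-Aa* (ENSMUSG00000036594.16, GRCm39 chr17:34493404-34506798, minus strand) had levels of 32, 28.8, and 49.5 CPM in the WT mice and 68.4, 55.8, and 67.4 CPM in the *Lztr1* R409C/+ mice, here and below in the order of replicates 1, 2, and 3. The groups did not overlap, and the highest WT value was that of replicate 3. The means were 36.8 ± 11.1 and 63.8 ± 7.002 CPM (SD, n = 3), with a log2 fold change of 0.79 (SE 0.20, 95% interval 0.35 to 1.24) and an adjusted p of 0.274 by edgeR's quasi-likelihood test. *H2-Ab1*, the partner chain of I-A (ENSMUSG00000073421.7, chr17:34476663-34488393, plus strand), had levels of 20.7, 19.6, and 32.2 CPM in WT and 42.0, 42.7, and 44.1 CPM in *Lztr1* R409C/+ mice. Again WT replicate 3 was highest of its group and below every *Lztr1* R409C/+ mouse. The log2 fold change was 0.83 (SE 0.19, interval 0.40 to 1.25) with an adjusted p of 0.215 by the same test.

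*H2-Eb1*, the I-E β chain (ENSMUSG00000060586.12, chr17:34504236-34535648, plus strand), had levels of 25.7, 20.5, and 48.9 CPM in WT and 55.1, 45.8, and 53.4 CPM in *Lztr1* R409C/+ mice. Here the groups overlapped, since WT replicate 3 was above *Lztr1* R409C/+ replicate 2. The log2 fold change was 0.70 (SE 0.27, interval 0.11 to 1.28) with an adjusted p of 0.515 by edgeR. *H2-Ea*, the gene of the α chain that would pair with it and that C57BL/6 mice are known to lack in function, had 0 counts in all 6 mice.

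*Cd74*, the invariant chain (ENSMUSG00000024610.16, chr18:60936899-60945731, plus strand), was the most abundant member, with 108, 81.1, and 157 CPM in WT and 163, 147, and 173 CPM in *Lztr1* R409C/+ mice. WT replicate 3 was above *Lztr1* R409C/+ replicate 2, and the difference between groups was the smallest of the 7 members on the log2 scale. The means were 115 ± 38.2 and 161 ± 13.0 CPM (n = 3), with a log2 fold change of 0.48 (SE 0.22, interval 0.01 to 0.95) and an adjusted p of 0.569 by edgeR.

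Both chains of the peptide editor H2-DM were at lower levels than the antigen binding chains and *Cd74*, per kilobase of exon too, and had the largest log2 fold changes of the 7 members. Their intervals overlapped those of the antigen binding chains. *H2-DMa* (ENSMUSG00000037649.11, chr17:34338515-34358958, plus strand) had 2.81, 2.04, and 2.77 CPM in WT and 5.45, 4.78, and 6.80 CPM in *Lztr1* R409C/+ mice, from at least 131 counts in each mouse. *H2-DMb1* (ENSMUSG00000079547.5, chr17:34372046-34379204, plus strand) had 1.74, 0.917, and 2.21 CPM in WT and 4.84, 3.33, and 5.78 CPM in *Lztr1* R409C/+ mice, from at least 59 counts. Neither gene had overlapping groups. The log2 fold change was 1.16 for *H2-DMa* (SE 0.25, interval 0.62 to 1.70) and 1.51 for *H2-DMb1* (SE 0.34, interval 0.77 to 2.26), each with an adjusted p of 0.215 by edgeR's quasi-likelihood test. With DESeq2 the adjusted p was 0.00525 for both.

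*Ciita*, the coactivator (ENSMUSG00000022504.11, chr16:10297923-10347694, plus strand), had 1.01, 2.30, and 1.5 CPM in WT and 2.67, 3.01, and 2.44 CPM in *Lztr1* R409C/+ mice. The groups did not overlap, although WT replicate 2 lay just under *Lztr1* R409C/+ replicate 3. The highest WT mouse for *Ciita* was replicate 2, whereas WT replicate 3 was highest for the antigen binding chains, *Cd74*, and *H2-DMb1*. The log2 fold change was 0.76 (SE 0.33, interval 0.04 to 1.47) with an adjusted p of 0.555 by edgeR. An exact two-sided permutation test over the 6 mice gave p = 0.1 for each of the 5 members whose groups did not overlap, which is the smallest p that this test allows in this design, and 0.2 for *H2-Eb1* and *Cd74*.

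**Figure D2:**
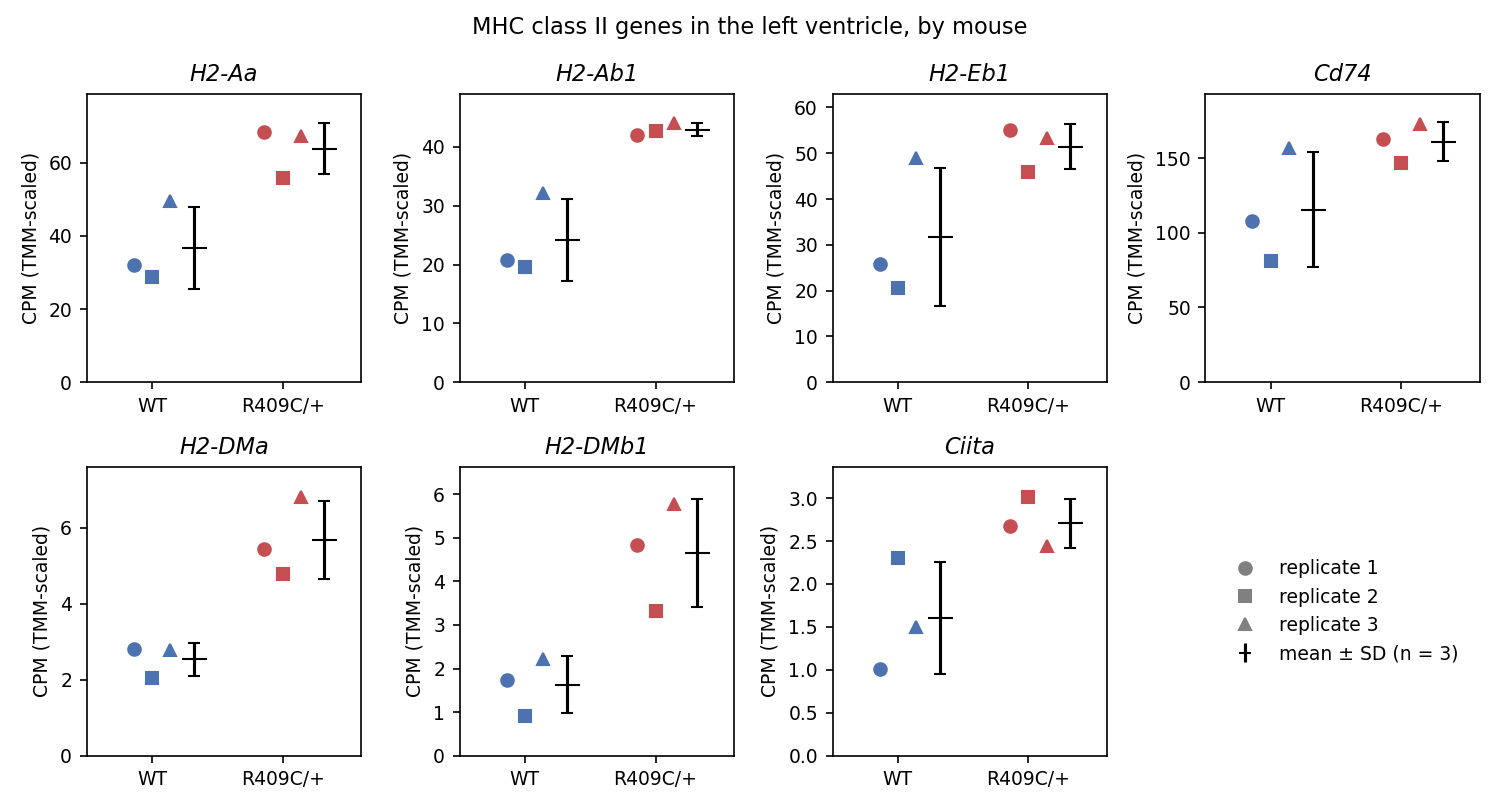
TMM-scaled CPM of the 7 members in each mouse on linear axes from 0 (circle, square, and triangle for replicates 1, 2, and 3, black bar for mean ± SD, n = 3 per group). The *Lztr1* R409C/+ mice lie above all WT mice in 5 panels, and WT replicate 3 reaches the *Lztr1* R409C/+ range for *H2-Eb1* and *Cd74*.

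Because WT replicate 3 stood apart, the members were also fitted without it. The log2 fold change was then 1.07 for *H2-Aa*, 1.09 for *H2-Ab1*, 1.15 for *H2-Eb1*, 0.76 for *Cd74*, 1.23 for *H2-DMa*, 1.80 for *H2-DMb1*, and 0.71 for *Ciita*, and the groups of all 7 members no longer overlapped, against 13.7% of all genes. With WT replicate 2 left out instead, the log2 fold change was 0.64 for *H2-Aa*, 0.69 for *H2-Ab1*, 0.46 for *H2-Eb1*, and 0.28 for *Cd74*. It was 1.02 for *H2-DMa*, 1.23 for *H2-DMb1*, and 1.1 for *Ciita*. *H2-Eb1* and *Cd74* then had an unadjusted p of 0.0972 and 0.23 by edgeR's quasi-likelihood test. Without TMM, when counts were scaled by library size only, the median of all genes moved from 0.01 to -0.14. The members stayed above 0, between 0.25 for *Cd74* and 1.29 for *H2-DMb1*, but only the 2 H2-DM genes kept an unadjusted p under 0.05, against 2.25% of all genes with one as higher, and 3 members did not overlap, against 3.62% of all genes.

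Levels between genes were compared per kilobase of exon, with the length of all exons of a gene merged. In WT mice *Cd74* was highest at 45.9 ± 15.2 CPM per kilobase (SD, n = 3), followed by *H2-Eb1* at 12.2 ± 5.82, *H2-Ab1* at 9.41 ± 2.72, and *H2-Aa* at 8.57 ± 2.59. These 3 differed from each other by less than the SD of *H2-Eb1*. *H2-DMb1* at 0.964 ± 0.389 and *H2-DMa* at 0.586 ± 0.101 CPM per kilobase differed by less than the SD of *H2-DMb1*, and *Ciita* was lowest at 0.145 ± 0.0588. In *Lztr1* R409C/+ mice the order on this scale was the same, from 64.0 ± 5.16 CPM per kilobase for *Cd74* to 0.245 ± 0.0257 for *Ciita*. With the length of the canonical transcript, a choice added after the data were seen, *H2-Aa* led the chains in WT at 32.6 ± 9.86 CPM per kilobase, before *H2-Ab1* at 19.9 ± 5.77 and *H2-Eb1* at 18.7 ± 8.91, and *H2-DMa* at 2.21 ± 0.379 was above *H2-DMb1* at 1.15 ± 0.465. The order within the chains and within the H2-DM pair therefore depended on the length used, while *Cd74* was highest and *Ciita* lowest with both.

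Members were then compared within each mouse, where scaling between libraries cancels, and 12 such ratios were computed. The ratio of *H2-Ab1* to *H2-Aa*, the partner chains of I-A, was 0.659 ± 0.019 in WT and 0.678 ± 0.0782 in *Lztr1* R409C/+ mice (CPM over CPM, n = 3), and that of *H2-Eb1* to *H2-Aa* was 0.834 ± 0.141 and 0.807 ± 0.0142. The invariant chain was then set against the summed 3 chains, although *H2-Eb1* is among them and its partner gene *H2-Ea* had 0 counts. *Cd74* over the summed 3 chains had values of 1.38, 1.18, and 1.2 for the WT mice, each above the 0.986, 1.02, and 1.05 of the *Lztr1* R409C/+ mice. The exact permutation p was 0.1, the smallest that this test can give for 3 mice against 3, and 0.72 after adjustment over the 12 ratios. No ratio could therefore have passed a threshold of 0.05 by this test. H2-DM over the 3 chains was 0.0463 ± 0.0105 in WT and 0.0649 ± 0.0103 in *Lztr1* R409C/+ mice, with overlap. *H2-DMb1* over *H2-DMa* also overlapped, at 0.622 ± 0.174 and 0.811 ± 0.101.

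**Figure D3:**
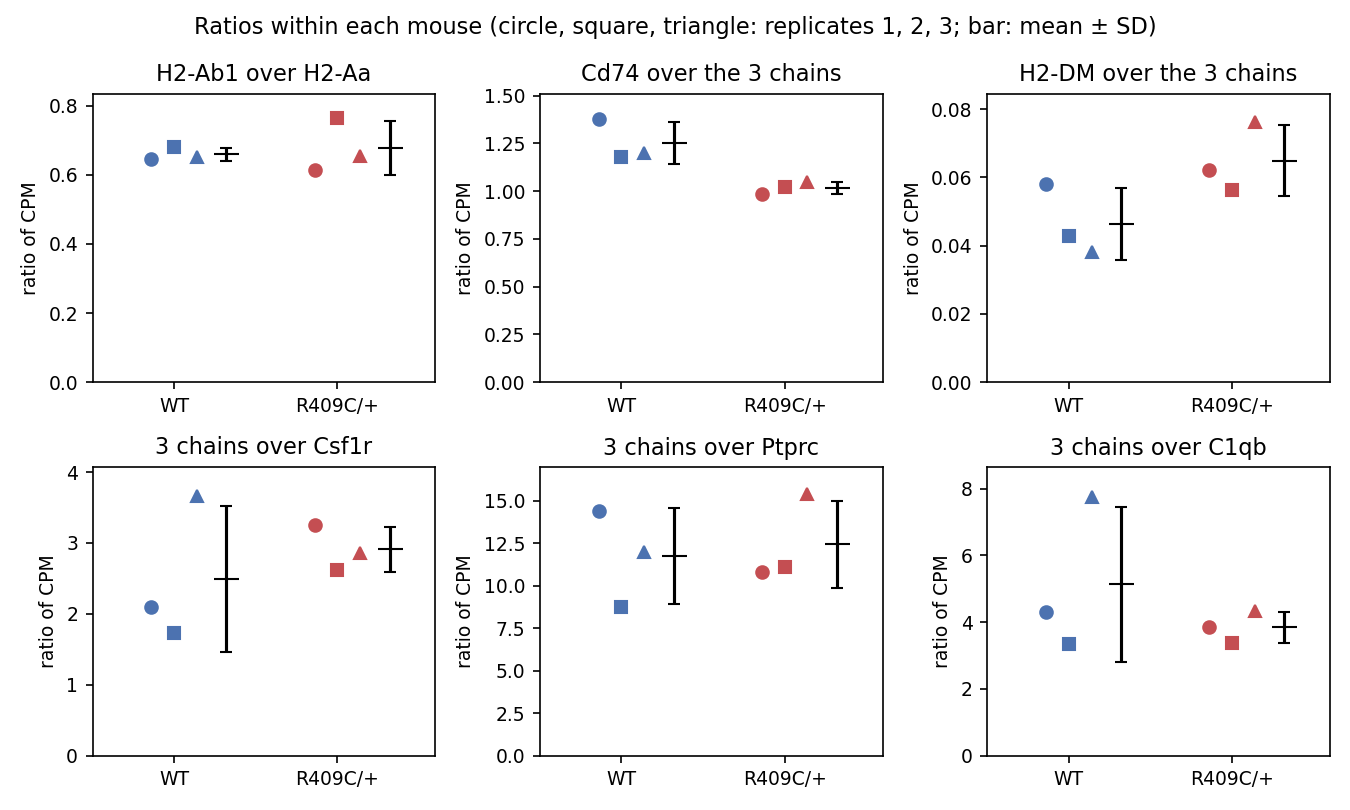
Ratios of CPM within each mouse, WT against *Lztr1* R409C/+, on linear axes from 0 (bars, mean ± SD, n = 3 per group). *Cd74* over the 3 antigen binding chains is the only ratio drawn whose groups do not overlap, at 1.18 to 1.38 in WT and 0.986 to 1.05 in *Lztr1* R409C/+ mice.

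Across the 6 mice, the log2 CPM of *H2-Aa* and *H2-Ab1* had a Pearson r of 0.98, *H2-Eb1* and *Cd74* one of 0.985, and *H2-DMa* and *H2-DMb1* one of 0.974. *Ciita* was least like the rest, with r between 0.288 and 0.635 with each other member. These values come from the same 6 libraries and include the difference between the groups, so they are a description. Outside the 7 genes, the tested genes whose pattern over the 6 mice was most like the mean profile of the members were *Cd200r4* (r = 0.99), *Gm15726* (0.989), *Clec2l* (0.987), *Ptgs1* (0.987), *Ctss* (0.987), *5031425F14Rik* (0.984), *Fabp4* (0.984), *Maf* (0.983), *Ms4a7* (0.983), and *Cd300lb* (0.982). Of these, *Ctss*, *Ptgs1*, *Fabp4*, and *Maf* were well above the floor, and *Cd200r4*, *Gm15726*, and *Clec2l* had means of at most 0.3665 CPM in either group. *Fabp4*, a fatty acid binding protein of endothelial cells, fat, and macrophages, was at 175 ± 24.96 CPM in WT and 251 ± 16.2 in *Lztr1* R409C/+ mice. *Ms4a7*, a membrane protein of macrophages, was at 1.36 ± 0.362 and 3.44 ± 0.450 CPM, a log2 fold change of 1.34 (SE 0.29, adjusted p 0.215 by edgeR).

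The genes that work with the members were described by role. Of the endosomal enzymes, *Ctss*, the protease that trims the invariant chain, was at 10.4 ± 2.74 CPM in WT and 18.9 ± 1.16 in *Lztr1* R409C/+ mice (log2 fold change 0.86, SE 0.20, adjusted p 0.215 by edgeR). *Ifi30*, a reductase that opens disulfide bonds of antigens, was at 2.80 ± 0.171 and 4.98 ± 0.862 CPM (log2 fold change 0.83, SE 0.23, adjusted p 0.308). Both had groups without overlap and an unadjusted p under 0.05, against 8.3% and 5.77% of all tested genes in this direction. None of the other 5 genes of this list, among them *Ctsb*, *Ctsd*, and *Lgmn*, had one, and the median of the 7 was 0.02 on the log2 scale against 0.01 over all tested genes. The 7 genes of the transcription complex, *Rfx5*, *Rfxap*, *Rfxank*, *Creb1*, *Nfya*, *Nfyb*, and *Nfyc*, had a median log2 fold change of -0.07, with 3 above 0 and 4 below. Of these 7, 0 had an unadjusted p under 0.05 in either direction by edgeR. *Rfxank* alone had groups without overlap, as higher, against 8.3% of all tested genes.

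Interferon-γ is the best known inducer of *Ciita*. *Ifng* itself had 0 counts in all 6 mice. Of its receptors and signalling genes, 8 were tested, 5 had a log2 fold change above 0, against 51.4% of all tested genes, and the median was 0.13. Both receptor chains, *Ifngr1* and *Ifngr2*, had groups that did not overlap, higher in *Lztr1* R409C/+ mice (log2 fold change 0.26 for each, unadjusted p 0.113 and 0.149 by edgeR), against 8.3% of all tested genes. *Jak1* was the 1 gene without overlap in the other direction, against 7.23% of all tested genes. *Jak1*, a kinase bound to the receptor, was lower in *Lztr1* R409C/+ mice, at 163 ± 3.06 CPM in WT and 127 ± 16.7 (log2 fold change -0.36, SE 0.16, unadjusted p 0.0392, adjusted p 0.555 by edgeR). Of the 6 genes of class II turnover and traffic, 0 had an unadjusted p under 0.05 in either direction by edgeR. Their median log2 fold change was -0.09. *Ap2b1* was the 1 gene of this list without overlap, as lower, against 7.23% of all tested genes. The 3 costimulation genes had a median log2 fold change of 0.73. *Cd86*, a costimulatory ligand shown to T cells beside class II molecules, was at 2.03 ± 0.295 CPM in WT and 5.25 ± 2.13 in *Lztr1* R409C/+ mice (log2 fold change 1.36, SE 0.30, adjusted p 0.215 by edgeR). Its level was 7.71 CPM in *Lztr1* R409C/+ replicate 1, against 4.11 and 3.93 CPM in replicates 2 and 3. The log2 fold change was 0.73 for *Cd40* and 0.17 for *Cd80* (unadjusted p 0.0773 and 0.565 by edgeR). The groups did not overlap for *Cd86* and *Cd40*, against 8.3% of all tested genes as higher, and overlapped for *Cd80*. Of the other class II genes, *H2-DMb2* and *H2-Ob* were tested, with log2 fold changes of 1.25 (unadjusted p 0.0629) and 0.92 (0.0783) by edgeR. The groups overlapped for *H2-DMb2* and did not for *H2-Ob*, as higher, against 8.3% of all tested genes. *H2-Oa* and *H2-Eb2* were below the filter. None of the genes in these 6 lists passed the adjusted threshold by edgeR's quasi-likelihood test.

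**Figure D4:**
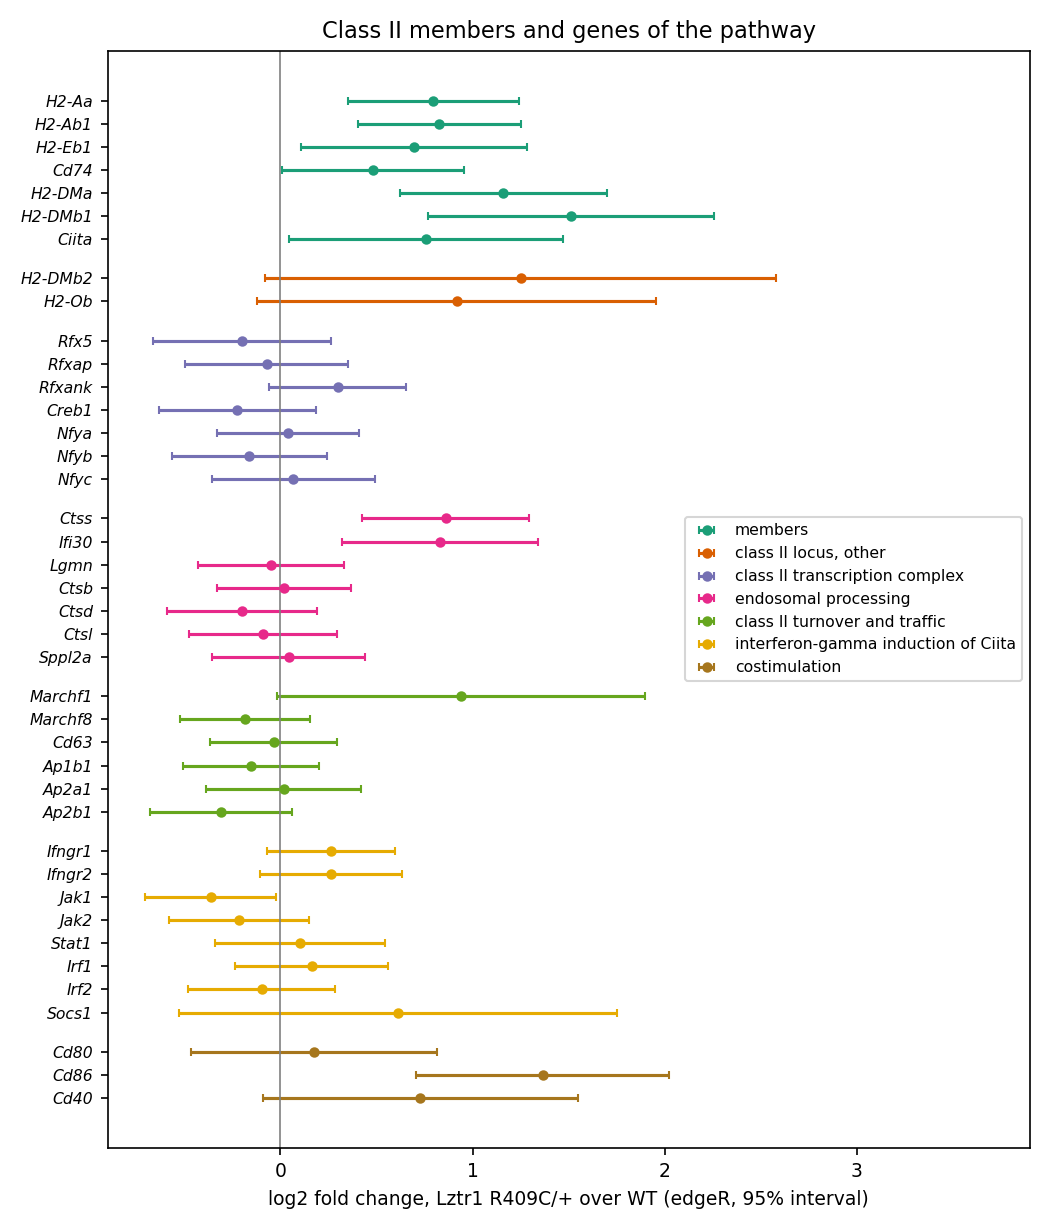
Log2 fold changes, *Lztr1* R409C/+ over WT, with 95% intervals from edgeR, unadjusted for the number of genes, for the members and the tested genes of 6 pathway lists. All 7 members, *Ctss*, *Ifi30*, and *Cd86* have intervals above 0, *Jak1* has one below 0, and the intervals of the other genes hold 0.

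Of the members, 5 lie within 197 kb of chromosome 17 (chr17:34338515-34535648). In this stretch 8 other genes were tested, and all 8 had log2 fold changes above 0, between 0.01 for the peptide transporter *Tap2* and 1.25 for *H2-DMb2*, with a median of 0.50. Above 0 were 51.4% of all tested genes. Of the 8, *Psmb8*, a subunit of the immunoproteasome, had an unadjusted p under 0.05 (log2 fold change 0.55, SE 0.24, unadjusted p 0.0423, adjusted p 0.564 by edgeR), against 5.77% of all tested genes as higher. Some members share exons with a neighbour on the opposite strand, and whether reads were counted by strand is not given in the sources used here. *H2-DMa* shares 510 exon bases (11.8% of its own) with *Brd2*, which had a log2 fold change of 0.03. *Ciita* shares 633 bases (5.73%) with *Dexi*, which had one of 0.22, and *H2-Aa* and *H2-Eb1* share 118 bases with each other. *H2-DMb1* shares 285 bases (17%) with the lncRNA *Gm64535*. Reads from such shared bases could belong to either gene.

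Markers of the cells that carry class II molecules were read beside the members. Of 13 macrophage genes, all 13 had a log2 fold change above 0, against 51.4% of all tested genes. For 12 the groups did not overlap, against 8.3% of all tested genes as higher. The median of the 13 was 1.19, and their summed level was 198 to 223 CPM in WT and 349 to 455 CPM in *Lztr1* R409C/+ mice. Of these, *C1qb* and *C1qc*, subunits of complement C1q made by tissue macrophages, were the 2 past the adjusted threshold (log2 fold changes 1.15 and 1.19, adjusted p 0.0241 for both by edgeR). Both calls were lost without any 1 of the 6 mice (adjusted p 0.0701 to 0.192 for *C1qb* and 0.0567 to 0.192 for *C1qc*), with the replicate number as a block (0.173 for both), and with library size only (0.447 and 0.379), while the log2 fold changes stayed at 1.01 or above. *Csf1r*, the receptor that macrophages need to survive, was at 37.7 ± 2.17 and 54.5 ± 3.36 CPM, a log2 fold change of 0.53 (SE 0.14, adjusted p 0.284). All 3 pan-leukocyte genes had an unadjusted p under 0.05 by edgeR, against 5.77% of all tested genes as higher. The groups did not overlap for *Coro1a* and *Laptm5*, against 8.3% of all tested genes, and overlapped for *Ptprc*. The summed level of the 3 was 29.1 to 36.9 CPM in WT and 50.4 to 61.5 CPM in *Lztr1* R409C/+ mice.

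Of 8 dendritic cell genes, 6 were tested, and the median was 0.94. For 4 of these the groups did not overlap, all as higher, against 8.3% of all tested genes. *Itgax*, the integrin CD11c, was at 0.327 ± 0.0317 CPM in WT and 1.10 ± 0.293 in *Lztr1* R409C/+ mice (log2 fold change 1.74, SE 0.44, adjusted p 0.264), and *Clec9a*, a receptor of conventional dendritic cells, had a log2 fold change of 0.61 (SE 0.25, adjusted p 0.535). The summed level of this list was 19.1 to 22.3 and 22.7 to 25.1 CPM, most of it from *Zbtb46*, which endothelial cells also express and which had a log2 fold change of -0.01. The 5 B cell genes summed to 1.02 to 1.93 CPM in WT and 2.15 to 3.75 CPM in *Lztr1* R409C/+ mice, with a median of 1.01. An unadjusted p under 0.05 was found for *Cd79a* alone (log2 fold change 1.61, SE 0.71, adjusted p 0.564 by edgeR), against 5.77% of all tested genes as higher. The 6 T cell genes summed to 0.847 to 1.37 and 1.35 to 2.41 CPM. Of these 3 were tested, *Cd3e*, *Cd4*, and *Trac*, with log2 fold changes of 2.44, 0.70, and 0.62, a median of 0.70, and overlap in each, and none had an unadjusted p under 0.05 by edgeR. *Cd3d*, which defines T cells, averaged 0.0202 and 0.0233 CPM, below the floor of 3 counts.

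The 3 antigen binding chains were also set against single leukocyte genes in the same mouse, and with all 6 mice the groups overlapped. The summed chains over *Csf1r* were 2.49 ± 1.03 in WT and 2.91 ± 0.316 in *Lztr1* R409C/+ mice (exact permutation p = 0.5), over *Adgre1*, the macrophage marker F4/80, 8.24 ± 2.57 and 9.66 ± 0.458 (exact p = 0.4), over *C1qb* 5.14 ± 2.32 and 3.86 ± 0.466 (exact p = 0.7), and over *Ptprc*, the leukocyte antigen CD45, 11.7 ± 2.82 and 12.4 ± 2.54 (exact p = 0.8), with overlap in each. In WT replicate 3 the chains were high for its macrophage genes, at 3.66 times *Csf1r* and 7.76 times *C1qb*, above every other mouse. The overlap over *Csf1r* and *Adgre1* rested on that mouse. Without it, a choice made after the data were seen and given with no test, the WT mean (n = 2) was 1.91 over *Csf1r* and 6.79 over *Adgre1*, below each *Lztr1* R409C/+ mouse, and the ratio between group means moved from 1.17 to 1.53 and from 1.17 to 1.42. Over *C1qb* it moved from 0.751 to 1.01 and over *Ptprc* from 1.06 to 1.07, with overlap in both. Such an exact p does not show that the ratios are equal. The denominators were chosen with their values known. *Csf1r* and *Adgre1* had log2 fold changes of 0.53 and 0.55, below the median of 1.19 over the macrophage genes, and *C1qb* had one of 1.15. The comparison therefore depends on the gene used, and ratios over the other macrophage genes were not computed. Over *Pecam1*, an endothelial gene, the ratio was 0.76 ± 0.359 and 1.22 ± 0.23, and over *Dcn*, a fibroblast gene, 0.28 ± 0.124 and 0.421 ± 0.054, with overlap in both (exact p = 0.3). Without WT replicate 3 neither overlapped, at WT means of 0.555 and 0.21.

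Markers of other cells were read in the same way. The median log2 fold change was -0.30 over 8 cardiomyocyte genes, whose summed level was 48100 to 51400 CPM in WT and 31100 to 47800 CPM in *Lztr1* R409C/+ mice, -0.03 over 4 endothelial genes, and 0.14 over 4 fibroblast genes. Of the fibroblast genes, *Tcf21* had an unadjusted p under 0.05 (log2 fold change 0.54, adjusted p 0.565 by edgeR), against 5.77% of all tested genes as higher. The cardiomyocyte sums did not overlap but came close, and they rest mostly on the abundant *Myh6*, *Atp2a2*, and *Actc1*. The lowest sum, 31100 CPM, was that of *Lztr1* R409C/+ replicate 1, against 42000 and 47800 CPM in replicates 2 and 3 of its group. Of the 8 genes, 6 had a log2 fold change below 0 and 2, *Myl2* and *Tnnt2*, above 0, against 51.4% of all tested genes above 0. For 2 the groups did not overlap, both lower, against 7.23% of all tested genes, and 0 had an unadjusted p under 0.05 by edgeR. The 5 red cell genes summed to 579 to 1480 CPM in WT and 1040 to 2630 CPM in *Lztr1* R409C/+ mice. Their median was 0.97, and the groups overlapped for each of the 5. *Hba-a1*, *Hba-a2*, and *Alas2* had an unadjusted p under 0.05 by edgeR, against 5.77% of all tested genes as higher. WT replicate 3 was the highest WT mouse for the red cell genes as well as for the antigen binding chains. *Lztr1* R409C/+ replicate 1 had the highest red cell sum, 2630 CPM, and the highest macrophage sum, 455 CPM, of all mice. The part of leukocyte number, red cell RNA, and RNA composition in the class II difference was not tested.

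**Figure D5:**
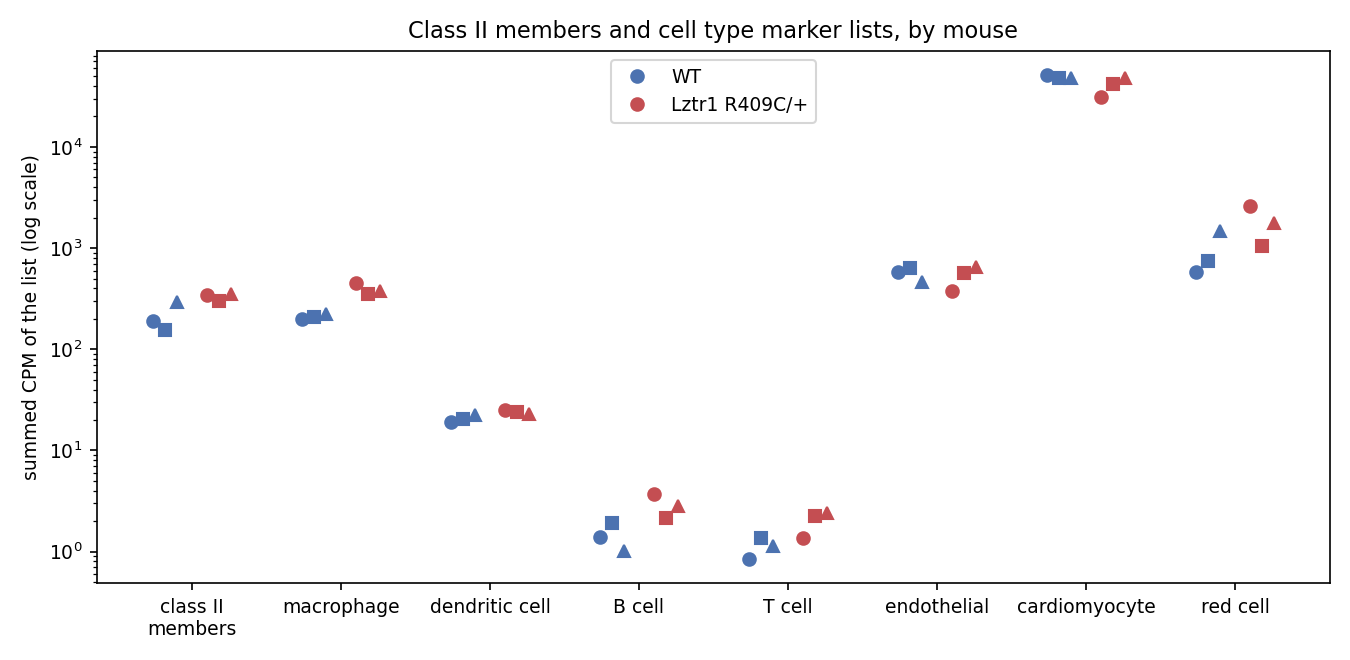
Summed CPM of the 7 members and of each marker list in every mouse, on a log axis (WT in blue, *Lztr1* R409C/+ in red, and circle, square, and triangle for replicates 1, 2, and 3). The macrophage genes, at 198 to 223 CPM in WT and 349 to 455 CPM in *Lztr1* R409C/+ mice, do not overlap between groups, nor do the members (155 to 294 and 303 to 353 CPM), the dendritic and B cell genes, or the cardiomyocyte genes, which are lower in *Lztr1* R409C/+ mice. T cell, red cell, and endothelial genes overlap.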

How the data were processed

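mRNA-Seq was done on 3 WT and 3 *Lztr1* R409C/+ LVs with a NEBNext Ultra II kit. The authors trimmed reads with Trim Galore, aligned them to GRCm39 with HISAT2, excluded rRNA, and counted genes with StringTie; versions, annotation release, and strand setting are not given in the sources used here. The deposited values are raw counts per gene, without normalization. The comparison table that the authors deposited (log2 fold changes, average log2 CPM, p-values, and FDR) was used for gene names only.

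Groups came from the sample labels, which name no batch. P-values of the fits set the group difference against the spread between these mice, with dispersion moderated across genes. An unlabelled batch could lie within that spread or between the groups. Counts were filtered with filterByExpr, scaled with TMM, and compared in R 4.3.3 with edgeR 4.0.16 (limma 3.58.1), by the two-sided robust quasi-likelihood test, with p-values adjusted over 17212 genes (Benjamini-Hochberg) and a threshold of 0.05. The common biological coefficient of variation was 26.1%. The prior count for correlations was 2. Single values were compared by exact permutation. Steps were tested on simulated data. Positions and lengths came from GENCODE, which held 56236 of the 56923 IDs, and promoters from RefSeq.

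The members and lists were chosen with earlier results of these data known. Named genes are the members, up to 3 genes per list with the smallest unadjusted p under 0.05, defining markers near 0, and the 10 genes most like the members in pattern; some genes that qualify carry no value. *Tap2*, *Psmb8*, *Brd2*, *Dexi*, *H2-Ob*, *H2-DMb2*, *Zbtb46*, *Ifngr1*, *Ifngr2*, *Cd40*, *Cd80*, *Cd3e*, *Cd4*, *Trac*, *Myl4*, *Nppa*, *Lztr1*, genes named without a value, and the denominators of the ratios fall outside this rule and were chosen with their values known. Alternatives were other scalings, DESeq2 1.42.0, edgeR's exact test, other filters, removal of mitochondrially encoded genes, a replicate block, and the omission of each mouse.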

Additional observations from a re-analysis of the deposited data

How the results depend on the processing

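Each of the 7 members kept a log2 fold change above 0 under all 15 alternatives. Over the omissions of 1 mouse, their median log2 fold change was 0.69 to 1.09 (0.795 with all mice, 1.09 without WT replicate 3), the number with an unadjusted p under 0.05 was 4 to 6 (4 without WT replicate 1 and 4 without *Lztr1* R409C/+ replicate 1, against 7), and 5 to 7 did not overlap. Over the same omissions 4.8% to 5.72% of all genes had an unadjusted p under 0.05 as higher, and 12.1% to 14.1% did not overlap, against 8.3% with all mice. Scaling by library size only left 2 members with an unadjusted p under 0.05, against 2.25% of all genes, and 3 without overlap, against 3.62%. DESeq2 and edgeR's exact test each called 4 members after adjustment, *H2-Aa*, *H2-Ab1*, *H2-DMa*, and *H2-DMb1*, where the quasi-likelihood test called 0. Over all genes, 6 were higher and 1 lower past the adjusted threshold. The higher calls were 15 with library size only, 143 with DESeq2, 124 with the exact test, 19 without a filter, 0 with the replicate block, and 1 to 3 without 1 mouse, and the lower calls were 6, 15, and 13 with the first 3 of these, 0 with at least 10 counts in every mouse, and 1 to 2 without 1 mouse. The cause of these differences was not tested. Same-numbered mice did not deviate together over the tested genes (correlations of -0.00133, 0.0215, and -0.0573). With 3 mice per group these values cannot exclude a weaker pairing by replicate number. With the replicate block the median of the members was 0.83, 7 had an unadjusted p under 0.05, against 5.25% of all genes as higher, and 0 passed the adjusted threshold. *Ciita*, *H2-DMa*, and *H2-DMb1* are the members with fewest counts, from 67, 131, and 59 per mouse. Counts of members without overlap under the alternatives, and the values of *C1qb* and *C1qc* under them, were added after the data were seen.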
